A study of Mus musculus with 10 samples.

Results

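The genes described here are the 2 corticosteroid receptors, Nr3c1 (the glucocorticoid receptor) and Nr3c2 (the mineralocorticoid receptor), and 6 genes that are known in other tissues to be induced by glucocorticoids. These 6 are Fkbp5, a co-chaperone of the receptor complex, Sgk1, a serine/threonine kinase, Tsc22d3, which encodes the leucine zipper protein GILZ, Zbtb16, which encodes the zinc finger repressor PLZF, Pdk4, a mitochondrial kinase that inhibits pyruvate dehydrogenase, and Cdkn1a, which encodes the cell cycle inhibitor p21. They were taken by symbol and make up 8 of the 32531 gene rows of the count tables. All 8 passed the low-count filter, which left 14680 genes to test.

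Ribosome-bound RNA was captured from the whole striatum of adult mice that carry an EGFP-tagged ribosomal protein L10a under the promoter of the dopamine D1 receptor gene (Drd1-EGFP/Rpl10a, line CP73), so that the tag marks cells in which that transgene is active. All mice were of a mixed FVB/N-Swiss Webster and C57BL/6 background, bred to C57BL/6 for at least 9 generations, and all groups carried the transgene. The mice belonged to a short-access study of intravenous self-administration, and the pull-downs came from cocaine self-administration, yoked control and saline self-administration mice (3 libraries each), beside 1 input library of total striatal RNA. The labels do not give the number of animals in a library, their exact age, what the yoked mice received or which mice gave the input, so p-values measure only the spread between these libraries, which may be technical.

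Corticosterone, the main glucocorticoid of the mouse, crosses the cell membrane and binds both receptors in the cytoplasm, where Hsp90 and its co-chaperones hold them in a form that can bind hormone. The loaded receptor moves to the nucleus and binds DNA, often as a dimer on a palindrome of inverted AGAACA arms, and the protein made from Fkbp5 feeds back by lowering the receptor's affinity for hormone. The mineralocorticoid receptor binds corticosterone with the higher affinity of the pair, and the glucocorticoid receptor of striatal neurons is known for its part in responses to stress and to psychostimulants.

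Libraries are named by group and number (cocaine 1, for example). The pull-downs held 12528806 to 45242175 gene counts and the input 40519976, and a count of 3, used as the detection floor, was worth 0.0663 to 0.239 counts per 1e+06 gene counts (CPM) in the pull-downs. All 6 markers of D1 medium spiny neurons were above the input in each of the 9 pull-downs, with a median ratio of 2.35, and all 6 markers of D2 medium spiny neurons were below it, with a median ratio of 0.154. Of 6 cortical glutamatergic markers, 5 were above the input in 7 or 8 of the 9 pull-downs and Rorb was below it in all 9, with a median ratio of 2.03. Their summed level was 76.9 to 106 CPM in the cocaine libraries, 36.5 to 123 CPM in the yoked libraries, 31.0 to 85.7 CPM in the saline libraries and 156 CPM in the input. Most of the input sum was Rorb, at 123 CPM there and 7.72 ± 4.72 CPM over the pull-downs (SD, n = 9). The summed level of 22 astrocyte, oligodendrocyte and microglia markers was 376 to 807 CPM in the cocaine libraries, 346 to 1813 CPM in the yoked libraries, 402 to 1104 CPM in the saline libraries and 4776 CPM in the input. Pituitary markers summed to 389 CPM in saline 1 and 2684 CPM in the input, against 0.530 to 6.39 CPM in the other pull-downs, and the choroid plexus gene Ttr stood at 147 CPM in saline 3. The cocaine libraries shared lane 1, the yoked libraries lane 2 and the saline libraries lane 3, with the input on lane 5, and an effect of lane cannot be told apart from one of group.

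The stretches of DNA around the start sites of these genes show which of them carry the exact letters of the receptor's palindrome close by. RefSeq start-site windows (250 bases before to 50 after a start site, build GRCm38.p6, the assembly known as mm10) were searched for 6 of the 8 genes, 14 windows in all, on both strands. The full palindrome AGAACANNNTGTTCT was present in 3 of 32851 windows of all genes (0.00913%), and 1 of the 3 belonged to Sgk1. A single arm, AGAACA on either strand, is common and was found in 19% of all windows and in 4 of the 14. The windows of Sgk1, Tsc22d3 and Fkbp5 printed here are those with the palindrome, with a lone arm and with neither, each 5′ to 3′ on the gene's strand with matches in capitals. They are chr10:21993640-21993939 on the plus strand, chrX:140600473-140600772 on the minus strand and chr17:28486100-28486399 on the minus strand.
Sgk1: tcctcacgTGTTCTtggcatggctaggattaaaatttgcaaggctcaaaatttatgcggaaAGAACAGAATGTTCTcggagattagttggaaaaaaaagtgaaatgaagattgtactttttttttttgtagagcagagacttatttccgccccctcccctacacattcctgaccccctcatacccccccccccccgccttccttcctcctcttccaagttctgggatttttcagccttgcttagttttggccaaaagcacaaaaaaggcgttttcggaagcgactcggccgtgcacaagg
Tsc22d3: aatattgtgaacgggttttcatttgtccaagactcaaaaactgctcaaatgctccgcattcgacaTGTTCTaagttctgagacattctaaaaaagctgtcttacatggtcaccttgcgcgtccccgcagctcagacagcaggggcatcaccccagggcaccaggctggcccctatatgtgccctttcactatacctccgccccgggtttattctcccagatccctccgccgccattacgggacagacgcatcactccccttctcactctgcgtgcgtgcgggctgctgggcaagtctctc
Fkbp5: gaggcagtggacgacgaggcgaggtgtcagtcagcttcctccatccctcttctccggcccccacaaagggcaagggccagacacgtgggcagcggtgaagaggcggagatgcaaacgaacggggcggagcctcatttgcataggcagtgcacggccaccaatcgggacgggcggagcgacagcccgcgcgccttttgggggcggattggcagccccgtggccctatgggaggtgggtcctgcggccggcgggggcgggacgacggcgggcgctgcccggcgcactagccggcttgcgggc
The Sgk1 palindrome, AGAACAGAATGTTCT, covers bases 21993701 to 21993715 of chromosome 10 and begins 189 bases before the nearest downstream start site and 965 bases before the next one. The gene has 6 such windows, and the palindrome was in 1 of them. Matches are a description of the letters and no measure of receptor binding, and the windows leave out all more distant sites.

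Among the receptors, Nr3c1 RNA stood at 98.0, 87.3 and 86.2 normalised CPM in the cocaine libraries, 95.5, 101 and 99.7 in the yoked libraries and 94.8, 103 and 95.1 in the saline libraries. Normalised CPM are counts per 1e+06 of the library size after TMM scaling, and they are used where single genes are compared between the groups. Levels given as plain CPM, among them all summed levels, are not TMM-scaled. The groups overlapped, since cocaine 1 lay among the yoked and saline libraries while cocaine 2 and cocaine 3 were the lowest of the 9. Means were 90.5 ± 6.53 in cocaine, 98.9 ± 3.07 in yoked and 97.7 ± 4.67 in saline libraries (SD, n = 3 each), which gave log2 fold changes of -0.11 ± 0.12 (SE) for cocaine against saline, -0.13 ± 0.12 for cocaine against yoked and 0.02 ± 0.12 for yoked against saline. In RNA from a whole tissue or from a tagged cell class, fewer cells and less RNA per cell cannot be told apart.

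Nr3c2 (chromosome 8, 76898083 to 77245012) stood at 54.0, 54.0 and 54.4 normalised CPM in the cocaine libraries, 59.2, 59.2 and 49.8 in the yoked libraries and 59.4, 59.3 and 58.9 in the saline libraries. The 3 cocaine libraries all lay below the 3 saline libraries, and yoked 3 was the lowest of the 9. Cocaine libraries averaged 54.1 ± 0.237 and saline libraries 59.2 ± 0.298 (SD, n = 3 each), and the log2 difference was -0.13 ± 0.13 (SE). These SDs are smaller than counting error alone gives, as the 95% exact Poisson interval was 52.6 to 57.7 CPM in cocaine 1 and 57.0 to 65.7 CPM in saline 2. The log2 fold change was -0.05 ± 0.13 for cocaine against yoked and -0.08 ± 0.13 for yoked against saline, and without yoked 3 the second of these was 0.00. A long noncoding RNA, Gm10649, overlaps Nr3c2 and took 222 counts over the pull-downs, against 16217 for Nr3c2.

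The balance of the receptors, taken as a ratio of their counts within a library, overlapped between the groups. Nr3c2 counts per Nr3c1 count were 0.550, 0.618 and 0.631 in the cocaine libraries, 0.620, 0.583 and 0.4995 in the yoked libraries and 0.627, 0.576 and 0.619 in the saline libraries. The difference between group means was -0.0071 for cocaine against saline, 0.032 for cocaine against yoked and -0.040 for yoked against saline, with two-sided exact permutation p = 0.8, 0.6 and 0.6, where 3 libraries against 3 allow no p below 0.1. All 9 pull-downs were above the input, at 0.457, and their mean was 0.591 ± 0.0440 (SD, n = 9).

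Fkbp5 (chromosome 17, 28398753 to 28486149), the co-chaperone that dampens receptor signalling, stood at 33.6, 36.5 and 35.9 normalised CPM in the cocaine libraries, 39.2, 36.8 and 28.7 in the yoked libraries and 42.8, 39.9 and 39.7 in the saline libraries. Every saline library was above every cocaine and every yoked library, and cocaine and yoked overlapped. Means were 35.3 ± 1.497 in cocaine, 34.9 ± 5.47 in yoked and 40.8 ± 1.75 in saline libraries (SD, n = 3 each). The log2 fold change was -0.21 ± 0.15 (SE) for cocaine against saline and -0.23 ± 0.15 for yoked against saline, comparisons that share the saline libraries, and 0.02 ± 0.15 for cocaine against yoked. Yoked 3, which had the lowest Fkbp5, also had the least glial marker RNA of the 9, and without it the yoked against saline value was -0.10. What part the glial RNA has in these values was not tested.

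Sgk1 (chromosome 10, 21882184 to 21999903), the kinase whose window holds the full palindrome, stood at 125, 122 and 140.2 normalised CPM in the cocaine libraries, 136, 116 and 131 in the yoked libraries and 126, 118 and 133 in the saline libraries. The groups overlapped in each comparison. Means were 129 ± 9.73 in cocaine, 127 ± 10.3 in yoked and 126 ± 7.46 in saline libraries (SD, n = 3 each). Log2 fold changes were 0.04 ± 0.13 (SE) for cocaine against saline and 0.02 ± 0.12 for cocaine against yoked and for yoked against saline, each smaller than its standard error.

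Tsc22d3 (chromosome X, 140539528 to 140600522), whose GILZ protein carries part of the anti-inflammatory action of glucocorticoids, stood at 9.20, 9.42 and 9.10 normalised CPM in the cocaine libraries, 9.40, 8.63 and 10.7 in the yoked libraries and 8.15, 10.8 and 4.22 in the saline libraries. Saline 3 was far below the other 8, and saline 2 was the highest of the 9. In edgeR the log2 fold change was 0.27 ± 0.27 (SE) for cocaine against saline, -0.05 ± 0.27 for cocaine against yoked and 0.32 ± 0.27 for yoked against saline. Without saline 3 the value was -0.03 for cocaine against saline and 0.02 for yoked against saline, and without saline 2 it was 0.57 for cocaine against saline and 0.63 for yoked against saline. Saline 3 held 97 Tsc22d3 counts, with a 95% exact Poisson interval of 3.36 to 5.06 CPM, and it is the library with the high level of the choroid plexus gene Ttr, whose part in the result was not tested. Glial marker RNA stood at 402 CPM in saline 3, and its part in the low value was not tested.

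Zbtb16 (chromosome 9, 48651797 to 48836225) and Pdk4 (chromosome 6, 5483351 to 5496278) were measured from few counts in the pull-downs. Zbtb16, a transcriptional repressor, stood at 2.08, 1.84 and 0.978 normalised CPM in the cocaine libraries, 1.45, 1.05 and 0.554 in the yoked libraries and 0.668, 2.63 and 0.304 in the saline libraries. Pdk4, which shifts cells from glucose to fat as fuel, stood at 1.67, 1.65 and 1.47 normalised CPM in the cocaine libraries, 2.24, 3.40 and 0.323 in the yoked libraries and 0.835, 2.71 and 0.826 in the saline libraries. The groups overlapped for both genes, and libraries of the yoked and saline groups differed more from each other than the groups did. Saline 3 held 7 counts of Zbtb16 and yoked 3 held 14 counts of Pdk4. For Zbtb16 the log2 fold change was 0.52 ± 0.67 (SE) for cocaine against saline, 0.68 ± 0.65 for cocaine against yoked and -0.16 ± 0.67 for yoked against saline. That of Pdk4 was 0.19 ± 0.67 for cocaine against saline, -0.32 ± 0.65 for cocaine against yoked and 0.51 ± 0.67 for yoked against saline. Single libraries set these values. For cocaine against saline, Zbtb16 was at 1.72 without saline 2 and 0.05 without saline 3, and Pdk4 was at 0.94 without saline 2 and -0.09 without saline 3. For cocaine against yoked, Pdk4 was at 0.32 without yoked 2 and -0.82 without yoked 3.

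Levels of Pdk4, and in part those of Zbtb16, moved with the glial marker RNA of a library. Markers of D2 medium spiny neurons, of oligodendrocyte precursors and of endothelial and mural cells did so too, and interneuron markers did in part. The 4 pull-downs with the least summed glial RNA (yoked 3, cocaine 3, saline 3 and saline 1, at 346 to 658 CPM) had the 4 lowest levels of Pdk4 and the 4 lowest of Zbtb16. Above that, Pdk4 stood at 1.62 CPM in cocaine 2, 1.70 in cocaine 1, 2.28 in yoked 1, 2.79 in saline 2 and 3.42 in yoked 2, the order of their glial RNA. Zbtb16 did not follow the order at the upper end, since yoked 2, with the most glial RNA, had 1.06 CPM against 2.71 CPM in saline 2. Sgk1 stood between 116 and 138 CPM over the same range of glial RNA. The part of glial RNA in the Pdk4 and Zbtb16 differences between groups was not tested.

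**Figure D1:**
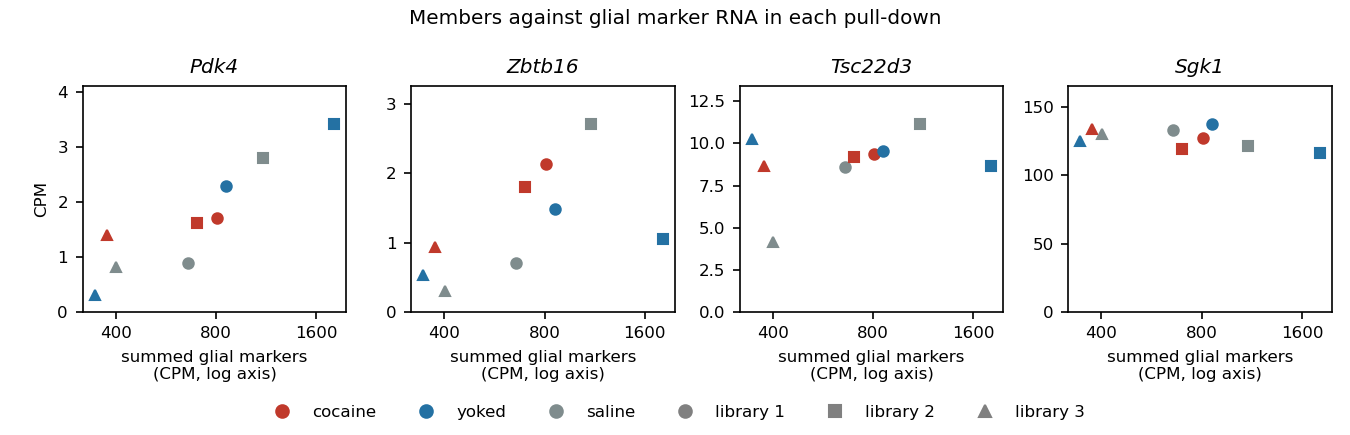
CPM of Pdk4, Zbtb16, Tsc22d3 and Sgk1 (vertical axes, from 0) against the summed CPM of 22 glial markers (horizontal log axis) in the 9 pull-downs, with 1 point per library, colour for the group and shape for the library number. Pdk4 is lowest in yoked 3, with 346 CPM of glial markers, and highest in yoked 2, with 1813 CPM, while Sgk1 stays between 116 and 138 CPM.

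Cdkn1a (chromosome 17, 29090979 to 29100722), the p21 inhibitor of cyclin-dependent kinases, stood at 44.9, 54.9 and 42.6 normalised CPM in the cocaine libraries, 44.0, 37.8 and 29.2 in the yoked libraries and 36.5, 47.7 and 36.2 in the saline libraries. The groups overlapped in each comparison, with cocaine 2 the highest and yoked 3 the lowest of the 9. Means were 47.5 ± 6.52 in cocaine, 37.0 ± 7.47 in yoked and 40.1 ± 6.57 in saline libraries (SD, n = 3 each). The log2 fold change was 0.36 ± 0.18 (SE) for cocaine against yoked, 0.24 ± 0.18 for cocaine against saline and -0.12 ± 0.18 for yoked against saline. Without cocaine 2 the values were 0.24 for cocaine against yoked and 0.13 for cocaine against saline. Cocaine against yoked was 0.22 without yoked 3, and cocaine against saline was 0.39 without saline 2. The edgeR test gave an unadjusted p = 0.0658 for cocaine against yoked, the smallest of the 24 member tests, and a Benjamini-Hochberg adjusted p = 0.974.

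**Figure D2:**
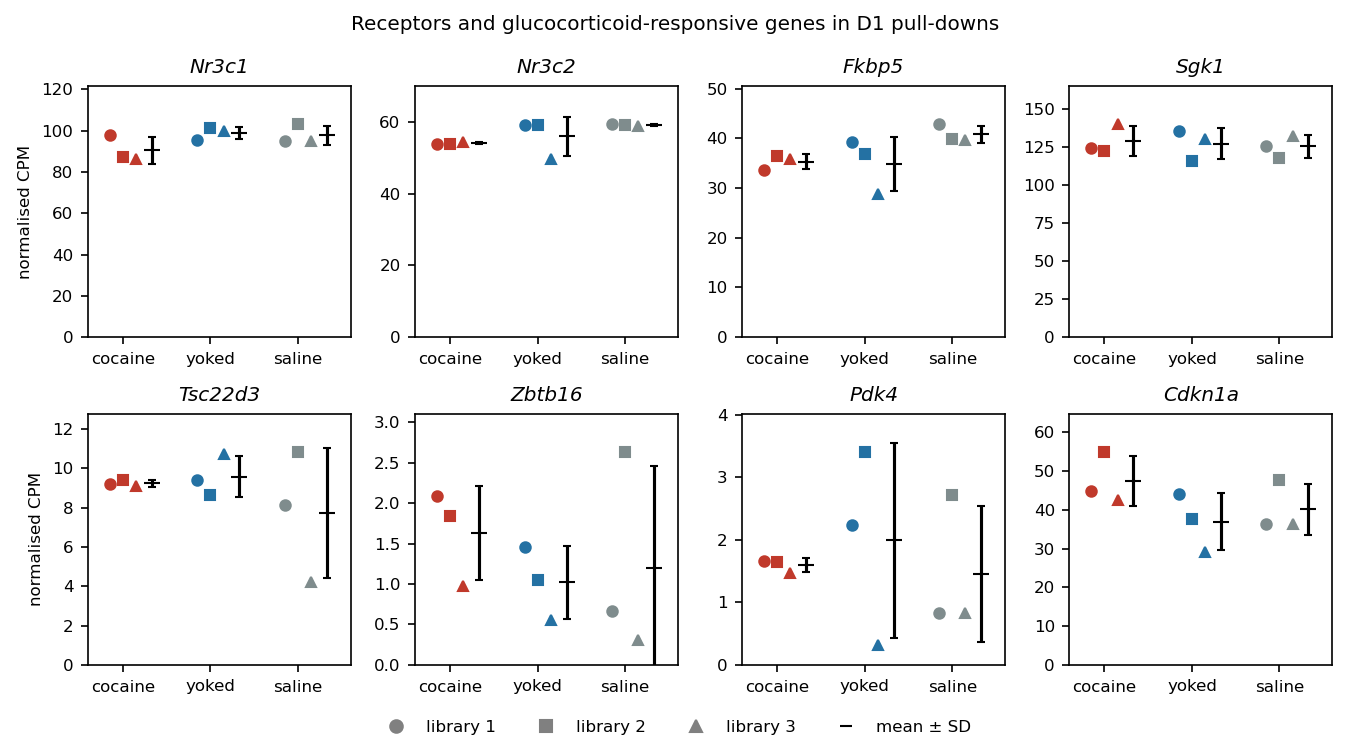
Normalised CPM of the 8 genes (vertical axes, from 0) in the cocaine, yoked and saline pull-downs, with a point per library shaped by its number and the mean ± SD of 3 libraries beside it. The cocaine and saline points are apart for Nr3c2 and Fkbp5, while for Zbtb16 and Pdk4 the points of 1 group span most of the axis, and the saline SD bar of Zbtb16 runs on below 0.

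None of the 8 genes passed the test in any comparison (edgeR quasi-likelihood test, Benjamini-Hochberg adjusted p = 0.974 to 0.999). The same fit called 0 of all 14680 genes in each comparison, 0% of those tested. At an unadjusted p under 0.05 it picked none of the 8 genes, against 417 genes (2.84%) for cocaine against saline, 379 (2.58%) for cocaine against yoked and 270 (1.84%) for yoked against saline. DESeq2 called 1 gene for cocaine against saline and 0 in the other comparisons, limma-voom called 0, and the 1 gene was none of the 8. At an unadjusted p under 0.05, DESeq2 picked 442, 431 and 303 genes and limma-voom 322, 431 and 226, in the order of comparisons given above. Groups that did not overlap were found for 2 of the 8 genes in cocaine against saline, Nr3c2 and Fkbp5, both lower in cocaine, where 5.08% of all genes were separated in that direction and 6.38% in the other. For yoked against saline it was Fkbp5 alone, lower in yoked, where 3.39% of all genes were separated in that direction and 3.3% in the other. For cocaine against yoked no member was separated, where 3.42% of all genes were separated higher and 3.34% lower. A fit with the replicate number as a block called 1 gene in each comparison, in place of 0, and none of the 8 was called. In such a design a small difference may be missed, and the standard errors of 0.12 to 0.67 set the size of what could be seen.

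**Figure D3:**
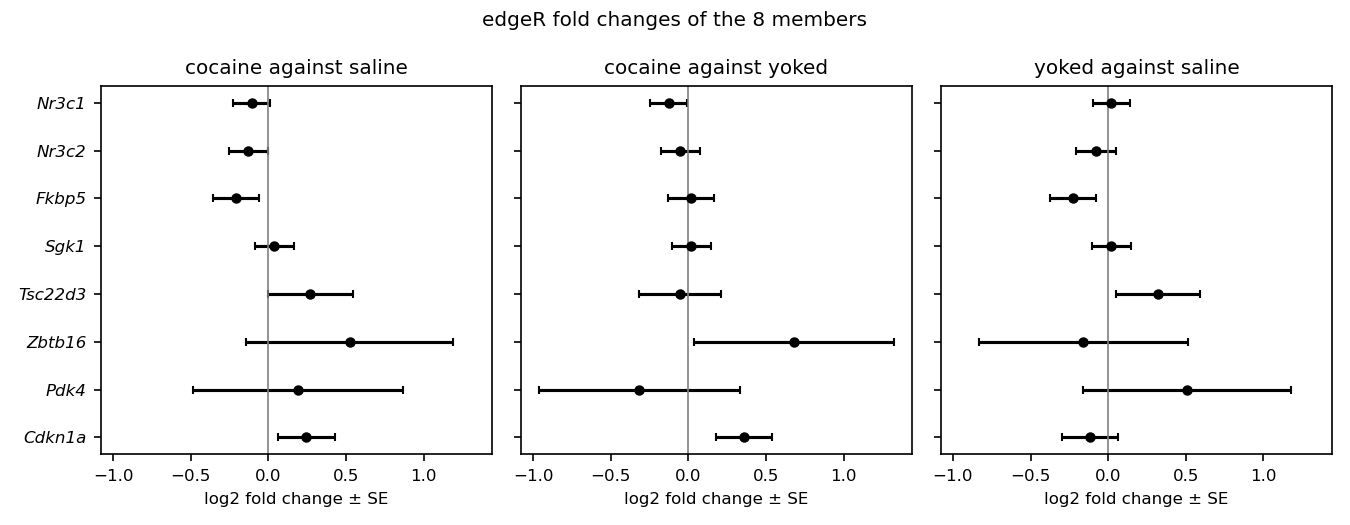
log2 fold change ± SE from edgeR for the 8 genes (rows) in the comparisons of cocaine with saline, cocaine with yoked and yoked with saline, with a line at no difference. The error bars of Zbtb16 and Pdk4 are the widest, at 0.65 to 0.67, and those of Nr3c1, Nr3c2 and Sgk1 the narrowest, at 0.12 to 0.13.

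Set against the input, the 8 genes fell into 3 sets, given here in CPM with no test because there was 1 input library. The input held pituitary RNA, as the marker levels above show, and what part that has in the ratios was not tested. Sgk1 and Fkbp5 were above the input in all 9 pull-downs, as were 28.5% of all genes tested. Sgk1 averaged 127 ± 7.13 CPM over the pull-downs (SD, n = 9) and 79.4 CPM in the input, a ratio of 1.60. Fkbp5 averaged 37.1 ± 5.03 CPM in the pull-downs against 24.7 CPM in the input, a ratio of 1.48. Cdkn1a averaged 41.6 ± 7.74 CPM against 28.9 CPM in the input, a ratio of 1.41, and lay above it in 8 of 9 pull-downs, the exception being yoked 3 at 27.9 CPM.

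Nr3c1, Tsc22d3, Zbtb16 and Pdk4 were below the input in all 9 pull-downs, as were 33.4% of all genes. Nr3c1 averaged 95.8 ± 7.80 CPM over the pull-downs (SD, n = 9) and 126 CPM in the input, whose 95% exact Poisson interval was 123 to 130 CPM. Its ratio was 0.756, so Nr3c1 RNA was present in the captured RNA and at a lower share than in this 1 input library. Tsc22d3 averaged 8.85 ± 1.95 CPM against 15.0 CPM in the input, a ratio of 0.589. Zbtb16 averaged 1.29 ± 0.799 CPM against 4.74 CPM in the input, a ratio of 0.313, and Pdk4 averaged 1.69 ± 0.999 CPM against 8.56 CPM, a ratio of 0.218. Median ratios of the glial marker lists were 0.187 for astrocytes, 0.141 for oligodendrocytes and 0.171 for microglia. Those of D2 medium spiny neuron markers and of endothelial and mural markers were 0.154 and 0.285. Interneuron markers had a median ratio of 0.218 and oligodendrocyte precursor markers one of 0.128.

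Nr3c2 lay at the level of the input, with 56.5 ± 4.99 CPM over the pull-downs (SD, n = 9) and 57.8 CPM and a ratio of 0.975. With library totals, Nr3c2 exceeded its input level in 0 of 3 cocaine, 2 of 3 yoked and 3 of 3 saline libraries. With TMM over the 10 libraries it did so in 8 libraries, so the low number in cocaine did not hold under that scaling. The direction of Nr3c2 thus depends on the scaling. The median log2 ratio of all genes was -0.04 with library totals and 0.14 with TMM over the 10 libraries. Nr3c2 was at -0.04 and 0.16. Relative to the all-gene median, the log2 ratios were 0.72 for Sgk1, 0.61 for Fkbp5, 0.54 for Cdkn1a, 0.00 for Nr3c2, -0.36 for Nr3c1, -0.72 for Tsc22d3, -1.64 for Zbtb16 and -2.15 for Pdk4. The other 7 genes kept their sign under both scalings, and under TMM over the 10 libraries Cdkn1a was above the input in all 9.

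**Figure D4:**
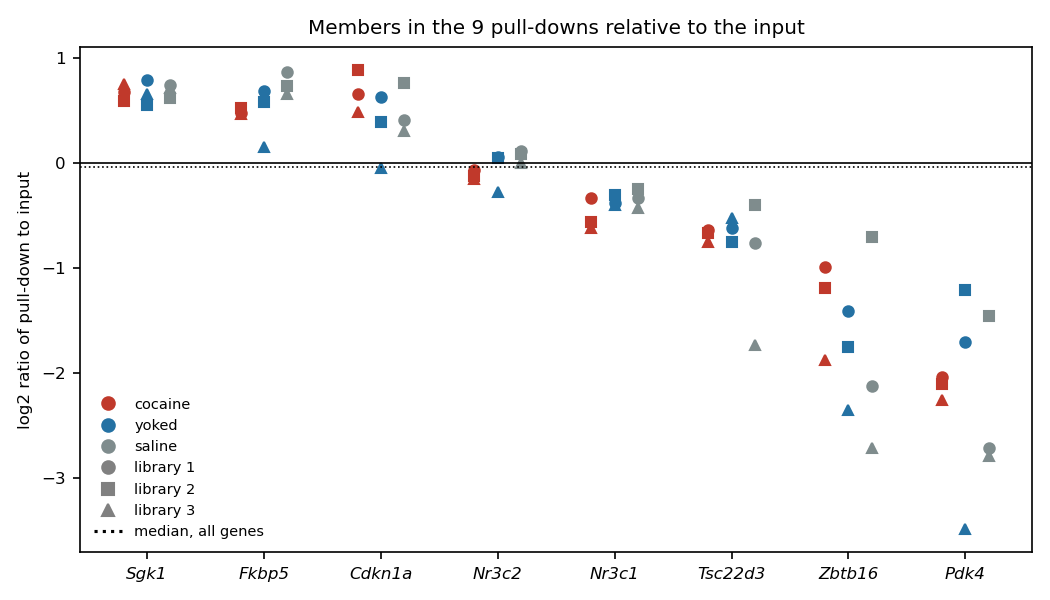
log2 ratio of each pull-down to the input (vertical axis) for the 8 genes, ordered by their mean ratio, with a point per library, colour for the group and shape for the library number, and a dotted line at the all-gene median of -0.04. Sgk1 and Fkbp5 lie above 0 in all 9 pull-downs, Nr3c2 straddles it, and Nr3c1, Tsc22d3, Zbtb16 and Pdk4 lie below it.

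Other genes that glucocorticoids are known to induce were examined as a list of 21, of which 17 passed the filter. For cocaine against saline 16 were higher and 1 lower, with a median log2 fold change of 0.19, beside 7432 higher and 7248 lower of all genes and a median of 0.00. None passed the test after Benjamini-Hochberg adjustment in edgeR. Higher members numbered 13 to 17 and the median 0.15 to 0.30 when each pull-down was left out in turn, with 17 to 19 genes tested. For cocaine against yoked 8 were higher and 9 lower (median -0.03), and for yoked against saline 14 were higher and 3 lower (median 0.19), the saline libraries being shared with the first comparison. Without yoked 2 these became 15 higher and 3 lower (median 0.10) for cocaine against yoked, and 11 higher and 7 lower (median 0.04) for yoked against saline. Without yoked 3 the medians were -0.25 for cocaine against yoked and 0.30 for yoked against saline. Cortical glutamatergic markers were also higher for cocaine against saline (5 of 6, median 0.49) and for yoked against saline (6 of 6, median 0.49), and none of them passed the test. Their part in the values of the list was not tested. The 6 responsive genes of the opening had 5 higher and 1 lower for cocaine against saline (median 0.22). These became 3 higher and 3 lower (median 0.01) without saline 3, 4 higher and 2 lower (median 0.11) without saline 1, and 4 higher and 2 lower (median 0.48) without saline 2. For cocaine against yoked 4 of the 6 were higher and 2 lower (median 0.02). For yoked against saline 3 were higher and 3 lower (median -0.05). With each pull-down left out in turn, these medians ran from -0.02 to 0.19 and from -0.14 to 0.33.

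Dusp1, a phosphatase that switches off MAP kinases, stood at 51.3, 57.1 and 68.0 normalised CPM in the cocaine libraries, 38.0, 65.7 and 36.9 in the yoked libraries and 45.8, 38.6 and 39.1 in the saline libraries. Mt1, a metallothionein that binds zinc, stood at 135, 175 and 165 in the cocaine libraries, 147, 136 and 86.3 in the yoked libraries and 123, 104 and 118 in the saline libraries. For both genes every cocaine library was above every saline library, and the yoked libraries overlapped both of those groups. Of the 17 listed genes 3 were separated in that way, beside 6.38% of all genes tested. The log2 fold change for cocaine against saline was 0.51 ± 0.21 (SE) for Dusp1 and 0.46 ± 0.18 for Mt1. Their unadjusted edgeR p-values, 0.0282 and 0.0256, became 0.999 for each after Benjamini-Hochberg adjustment. They were 2 of the 17 at an unadjusted p under 0.05, beside 2.84% of all genes. Per1, a clock gene, was separated too, with cocaine libraries at 101 ± 7.78 and saline libraries at 88.8 ± 3.96 (SD, n = 3 each), and its log2 fold change was 0.19 ± 0.24 (SE). Klf9, a zinc finger factor, was at 0.15 ± 0.14, Nfkbia, the inhibitor of NF-kappa B, at 0.49 ± 0.38 and Mt2, the sister gene of Mt1, at 0.36 ± 0.31.

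The metallothioneins differed in the pull-downs relative to the input. Mt2 averaged 9.97 ± 3.31 CPM over the pull-downs (SD, n = 9) and 77.6 CPM in the input, a ratio of 0.129, and it was below the input in all 9. Mt1 averaged 132 ± 26.9 CPM against 112 CPM in the input, a ratio of 1.15, and it was above the input in 7 of 9. Over the list, 2 genes were above the input in all 9 pull-downs (Dusp1 at a ratio of 1.67, and Map3k6 at 1.63) and 7 were below it in all 9, of 17 tested. Over all genes, 28.5% were above the input in all 9 and 33.4% below. Per1 had a ratio of 1.56, Klf9 of 1.01 and Nfkbia of 0.985.

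The chaperones and co-chaperones of the receptor complex were above the input throughout. All 12 listed genes were above it in all 9 pull-downs, with a median ratio of 1.67, beside 28.5% of all genes above it in all 9. With TMM over the 10 libraries 5529 of all 14680 genes were. Hsp90aa1, a gene of the Hsp90 family itself, averaged 86.8 ± 9.05 CPM over the pull-downs (SD, n = 9) and 50.5 CPM in the input. Fkbp4, the co-chaperone that competes with Fkbp5, averaged 66.9 ± 5.92 CPM against 41.7 CPM, and Ptges3, the p23 co-chaperone, 39.4 ± 8.91 CPM against 25.2 CPM. Between groups, 8 were higher and 4 lower for cocaine against saline (median 0.08), with log2 fold changes of 0.03 ± 0.14 (SE) for Hsp90aa1, -0.10 ± 0.13 for Fkbp4 and 0.19 ± 0.22 for Ptges3. There were 6 higher and 6 lower for cocaine against yoked (median 0.02), and 8 higher and 4 lower for yoked against saline (median 0.07).

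Coregulators, which join the receptor to the transcription machinery, had lower means in cocaine than in saline libraries in 9 of 9 genes. The median log2 fold change was -0.23, and none passed the test. Of all genes, 7432 were higher and 7248 lower in that comparison. The cocaine and saline libraries overlapped for each of the 9. Their summed level, not TMM-scaled, was 1578, 1188 and 1206 CPM in the cocaine libraries and 1647, 1510 and 1614 CPM in the saline libraries. When each pull-down was left out in turn, 8 or 9 of the 9 were lower and the median was -0.32 to -0.15. The coactivator Ncoa1 averaged 263 ± 31.8 normalised CPM over the cocaine libraries and 306 ± 7.20 over the saline libraries (SD, n = 3 each), with a log2 fold change of -0.22 ± 0.13 (SE). The corepressors Nrip1 and Ncor1 were at -0.23 ± 0.16 and -0.16 ± 0.13. For cocaine against yoked 3 were higher and 6 lower (median -0.09), and the direction turned without yoked 2 (6 higher and 3 lower, median 0.06) and without cocaine 2 (5 higher and 4 lower, median 0.03). Without cocaine 1 all 9 were lower (median -0.18), and without yoked 3 it was 8 of 9 (median -0.20). For yoked against saline 1 was higher and 8 lower (median -0.11), which became 4 higher and 5 lower (median -0.02) without yoked 3 and 9 lower (median -0.23) without yoked 2. Nrip1 was separated in that comparison, at 54.6 ± 9.00 in yoked and 65.8 ± 3.06 in saline libraries (SD, n = 3 each). It was 1 of the 9, beside 3.39% of all genes separated lower there. No coregulator was separated for cocaine against yoked.

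**Figure D5:**
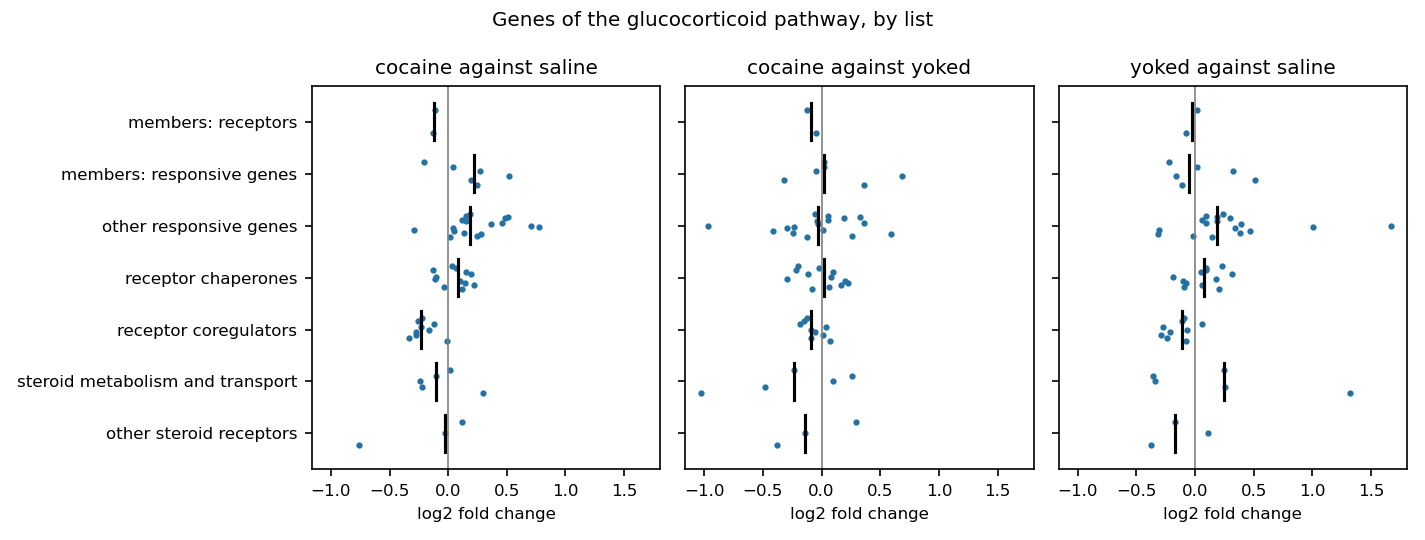
log2 fold change of each tested gene (points) in 7 lists of the pathway (rows), for the comparisons of cocaine with saline, cocaine with yoked and yoked with saline, with a bar at the median of the list and a line at no difference. For cocaine against saline the medians are 0.22 and 0.19 for the responsive genes and -0.23 for the coregulators, and no point passed the test.

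The genes whose levels were most like each member over the 9 pull-downs were found by the Pearson r of log2 normalised CPM among 10998 candidates. These values describe libraries that share groups and glial RNA, and the highest of so many candidates is high by selection. For Nr3c1 they were Map4k5, Urb2 and Otud4, each at r = 0.96, and for Nr3c2 Fam53b (0.97), Arrb1 (0.96) and Gmeb2 (0.95). For Fkbp5 they were Gmeb1 (0.98), Rxra (0.94) and Gmeb2 (0.94), so Gmeb2 appears beside Nr3c2 and beside Fkbp5. For Sgk1 they were Arsa, Sema4a and Abhd16a (0.92 to 0.96), and for Cdkn1a Ube2v1, Rab5c and Emc9 (0.94 to 0.96). For Tsc22d3 they were Sat2, Dctd and Tbccd1 (0.92 to 0.94), for Zbtb16 H3f3a, Rhou and Acad9 (0.92 to 0.96) and for Pdk4 Tubb4a, Mfn1 and Sept8 (0.95 to 0.96).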

How the data were processed

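RNA on tagged ribosomes (TRAP-seq) was sequenced in 9 pull-downs, beside 1 input of total RNA. The deposited values are whole-number counts per gene symbol, which the authors made, per the submitters' processing notes, with STAR 2.0.0e and HTSeq on the mm10 genome. The sources used here do not give the strand setting, the annotation or the HTSeq version, so reads of overlapping genes cannot be told apart. The 6 rows of each file that name no gene were left out, and the reads that fell in no feature made up 12.3% to 16.1% of unique alignments per pull-down and 27.6% for the input. Rn45s, which encodes ribosomal RNA, made up 10.5% to 20.5% of pull-down gene counts. Replicate counts differed beyond sampling noise, with a chi-square of 15.3 to 169 per degree of freedom, and none was treated as a duplicate.

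Groups were compared with edgeR 4.0.16 (R 4.3.3) by its robust quasi-likelihood F test after filterByExpr and TMM, with all 9 pull-downs in the fit and no term but the group, and p-values were adjusted by Benjamini-Hochberg over 14680 genes, with a call at 0.05. The common biological coefficient of variation was 23.7%. The script was tested on simulated data. The alternatives were DESeq2 1.42.0, voom of limma 3.58.1, RLE scaling, no filter, only the groups compared, a replicate block, Rn45s left out and each library left out. Ratios to the input are 2 to the mean over pull-downs of log2(CPM + 0.5), less that of the input, with pseudocounts of 2 and 0.1 CPM and TMM over the 10 libraries as alternatives. Poisson intervals and the 3-count floor cover counting error only. Levels of different genes are not compared, since exon lengths were not used here.

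The 8 genes and the lists were chosen with earlier results of these data known. The named genes are the 8, any called gene of the lists and 15 list genes set by rule, of which 1 is not reported here; Map3k6, Gm10649, Ttr, Rorb, Hsd11b2 and Serpina6 were named after their values were seen. The 3 genes of highest Pearson r with each of the 8 were named among genes whose mean count was 50 or more. Same-numbered libraries deviated together in all 3 yoked and saline pairs (correlations 0.119, 0.274 and 0.294) but not in cocaine 1 with saline 1 (0.058) or yoked 1 (-0.065), and the labels give no shared origin. Promoter windows are from RefSeq. Nr3c1 sequence is not reported here, and Zbtb16 had no window.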

Additional observations from a re-analysis of the deposited data

Results flagged for a closer look

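Tsc22d3 in saline 3 stood at 4.22 normalised CPM, far from the other 8 pull-downs, which ran from 8.15 to 10.8. The gap to the nearest library was 0.594 of the whole range over the 9 pull-downs, above the critical value of 0.493 for 9 libraries. The 9 libraries were pooled for this because groups of 3 are too small, 8 genes were examined, and chance flags about 1 in 20 such sets.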

How the results depend on the processing

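No member passed an adjusted p of 0.05 in any of the 384 values from 24 member tests under 16 alternatives each (smallest adjusted p 0.748), and 24 of those values changed sign. The number of genes called over the whole table was 0 in each comparison. For cocaine against saline it was 1 with DESeq2, 1 with only the 2 groups in the fit and 1 with the replicate block, which also called 1 for cocaine against yoked and 1 for yoked against saline. With a library left out it was 0 to 1 for cocaine against saline and for yoked against saline, where the 1 came without yoked 3, and 0 for cocaine against yoked. Genes at an unadjusted p under 0.05 moved more. For cocaine against saline they were 1001 without yoked 3, 864 without cocaine 1, 246 without cocaine 3, 230 without cocaine 2 or saline 3, 840 with only the 2 groups and 751 with no filter. For cocaine against yoked they were 1025 without yoked 3, 818 without cocaine 1, 732 without yoked 1, 210 without cocaine 2, 221 with only the 2 groups and 845 with no filter. For yoked against saline they were 794 without yoked 2, 589 without yoked 1, 428 without yoked 3 and 647 with no filter. The causes were not tested. Zbtb16 for yoked against saline was 0.39 with limma-voom and 0.061 with the replicate block, and Pdk4 for cocaine against yoked was 0.25 and 0.062. Log2 fold changes that turned sign with a library left out ran, for cocaine against saline, from -0.029 to 0.081 for Sgk1, -0.029 to 0.57 for Tsc22d3 and -0.10 to 0.94 for Pdk4. For cocaine against yoked they ran from -0.10 to 0.11 for Fkbp5, -0.049 to 0.066 for Sgk1, -0.12 to 0.037 for Tsc22d3 and -0.82 to 0.32 for Pdk4. For yoked against saline they ran from -0.0084 to 0.059 for Nr3c1, -0.13 to 0.0001 for Nr3c2, -0.027 to 0.075 for Sgk1, -0.64 to 1.04 for Zbtb16, -0.13 to 1.26 for Pdk4 and -0.26 to 0.032 for Cdkn1a. Members above the input in every pull-down numbered 2, and 2 to 3 with a library left out. TMM over the 10 libraries gave 3, with -0.20 for Nr3c1, 0.16 for Nr3c2 and 0.88 for Sgk1, and centring on the all-gene median, added after the data were seen, gave 2. The 4 members below the input stayed 4 under each alternative. Depth limits Zbtb16 and Pdk4 most, with 7 to 70 and 14 to 149 counts per pull-down.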

Other observations

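Enzymes and transport genes of steroid signalling had low levels in the pull-downs. Hsd11b1, which regenerates active glucocorticoid inside cells, averaged 0.492 ± 0.105 CPM over the pull-downs (SD, n = 9) and 1.73 CPM in the input, and it was below the input in all 9. Hsd11b2, which inactivates glucocorticoid, had at most 1 count in each pull-down and 3 counts in the input. Serpina6, the carrier of corticosteroids in blood, had 0 counts in all 10 libraries. The floor of 3 counts was worth 0.239 CPM in the shallowest pull-down. Abcb1a, a transporter of the blood-brain barrier, averaged 0.224 ± 0.239 CPM in the pull-downs against 0.691 CPM in the input. All 5 tested genes of steroid metabolism and transport were below the input in all 9 pull-downs, where 33.4% of all genes were. With TMM over the 10 libraries H6pd and Abcb1b were each above the input in 1 pull-down. Under that scaling 3838 of all 14680 genes were below it in all 9.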
